A study of Mus musculus with 13 samples.

Results

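Gabra3 and Gabrg1 encode the alpha 3 and gamma 1 subunits of the GABA-A receptor. Their levels were followed in the striatum of mice that lack STEP, a neuronal tyrosine phosphatase (gene Ptpn5) that is abundant in the striatum and dampens signalling through glutamate receptors and kinases. All probe sets that carry either symbol in the authors' deposited table of differentially expressed genes were taken, which gave 2 probe sets of Gabra3 and 2 of Gabrg1 among the 4423 probe sets of that table, or 2 of its 2832 genes with a single symbol. RNA from 13 naive male mice on a C57Bl/6J background was hybridised to Affymetrix arrays, with 1 mouse per array. The labels give neither the ages nor the way in which the Ptpn5 allele was disrupted. The arrays came from 4 homozygous STEP knockout mice (HOM), 5 heterozygous STEP knockout mice (HET) and 4 wild-type littermates (WT). No scan date or other batch is named in the labels.

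GABA-A receptors are chloride channels built from several subunits, and they carry most of the fast inhibition in the brain. The alpha subunit shapes how long the channel stays open and, together with a gamma subunit, forms the site where benzodiazepines bind. Gabra3 is known from monoaminergic and cholinergic neurons, the thalamic reticular nucleus and deep layers of the cortex, and it is sparse in the projection neurons of the striatum. Gabrg1 is a rarer gamma subunit and is known from the amygdala, septum, pallidum and some glia.

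The stretches just upstream of the annotated starts are shown side by side because the 2 genes entered the authors' selection through different comparisons, Gabra3 through HET and Gabrg1 through HOM. Each sequence is the 250 bases before 1 annotated start, from RefSeq on GRCm38.p6, read on the minus strand. Gabra3 has 2 annotated starts, of which only 1 is shown and described, and Gabrg1 has 1. Capitals mark letters that match the TATA box in Gabra3, and in Gabrg1 the homeodomain core TAATTA and the E-box CANNTG.
Gabra3, chrX:72656920-72657169: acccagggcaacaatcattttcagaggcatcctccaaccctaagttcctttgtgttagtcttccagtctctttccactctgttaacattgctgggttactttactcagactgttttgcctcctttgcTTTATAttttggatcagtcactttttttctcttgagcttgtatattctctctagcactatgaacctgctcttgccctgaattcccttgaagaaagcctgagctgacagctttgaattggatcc
Gabrg1, chr5:70842618-70842867: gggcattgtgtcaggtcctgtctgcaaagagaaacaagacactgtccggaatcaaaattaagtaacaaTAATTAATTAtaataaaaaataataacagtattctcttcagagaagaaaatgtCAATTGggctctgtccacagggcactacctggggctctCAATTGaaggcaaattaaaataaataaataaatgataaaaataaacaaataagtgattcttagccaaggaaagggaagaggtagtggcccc

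Both upstream stretches were poor in G and C. The GC content was 42.4% for Gabra3 and 35.6% for Gabrg1, against a median of 52.4% over the 32851 starts in the table. Gabra3 had 0 CG dinucleotides and Gabrg1 had 1, against a median of 6. Of all starts, 7.87% had none. Motifs were searched on both strands in the same window. The TATA box, TATAAA, occurred once in Gabra3, as TTTATA on the printed strand, and is found in 12.4% of all starts. The homeodomain core TAATTA occurred at 2 overlapping positions in Gabrg1 and is found in 4.84% of starts, and the E-box CANNTG occurred at 2 positions in Gabrg1 and in 66.2% of starts. The cAMP response element TGACGTCA (1.55% of starts) and the AP-1 site TGANTCA (6.75%) were found in neither window. On chromosome X, Gabra3 has the subunit gene Gabrq as its next protein-coding neighbour on one side and Gabre as the second neighbour on the other. On chromosome 5, Gabrg1 lies next to Gabra2, with Gabra4 as the third gene on that side. None of these 4 neighbouring subunit genes had a probe set with a name in the files used here.

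Ptpn5 was lowest in the homozygous arrays. With its dimmer probe set, intensity averaged 486 ± 105 (SD, n = 4) in HOM, 1028 ± 231 (SD, n = 5) in HET and 1649 ± 217 (SD, n = 4) in WT. These groups follow the sample titles of the whole-array table. The selected table heads its columns the other way: all 17692 of its values headed HOM equal, after rounding, those of the arrays titled wild type, and all 17692 headed WT equal those titled homozygous. The authors' deposited table gives folds that follow the sample titles, within 0.05 log2 for all 1027 of the homozygous comparison and for 3872 of 3874 of the heterozygous one. Every direction below follows the titles and would turn between HOM and WT if the column headings of the selected table were used instead. No source used here says whether these probes target the disrupted part of Ptpn5.

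Few probe sets changed across the array at a limma adjusted p under 0.05: 4 in HOM minus WT (2 of Ptpn5, Tlr4 and Tmem114), 1 in HET minus WT (Tlr4) and 3 in HOM minus HET (2 of Ptpn5, and Sult2b1). Without HET 4 the count in HET minus WT was 213. At an unadjusted p under 0.05, 1268 of 1362 probe sets were higher in HOM than in WT, 4870 of 4939 were higher in HET than in WT, and 277 of 1198 were higher in HOM than in HET. Single arrays moved these counts: HOM minus WT had 9345 of 9414 without HOM 1, 464 of 692 without HOM 2 and 701 of 795 without WT 4. HET minus WT had 8398 of 8464 without HOM 1, 7487 of 7539 without HET 4, and 2634 to 2915 higher ones without HET 1, HET 3, WT 1 or WT 4. HOM minus HET had 1199 of 1850 without HOM 1 and 357 of 1870 without HOM 4. After median centring these splits were 847 of 1765, 2602 of 4462 and 1019 of 2539, and after quantile normalization they were 1095 of 2066, 1734 of 3400 and 1107 of 2317. The median difference over all probe sets was 0.092 log2 in HOM minus WT, 0.12 in HET minus WT and -0.031 in HOM minus HET.

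Gabra3 was highest in heterozygous striatum. With its brighter probe set, the HOM arrays had 617, 631, 364 and 789. The HET arrays had 824, 705, 762, 549 and 1121, and the WT arrays had 323, 495, 530 and 479. Every HET array lay above every WT array, while HOM overlapped both other groups. Group means were 600.4 ± 176 (SD, n = 4) in HOM, 792 ± 210.3 (SD, n = 5) in HET and 457 ± 91.8 (SD, n = 4) in WT.

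The dimmer probe set of Gabra3 gave the same order. Its HOM arrays had 172, 159, 116 and 204. Its HET arrays had 193, 177, 172, 158 and 288, and its WT arrays had 88, 140, 153 and 141. HET and WT again did not overlap. In each probe set the highest array was HET 5 and the lowest was WT 1. The 2 probe sets tracked each other closely over the 13 arrays, with r = 0.969, and r = 0.952 for deviations from the genotype means.

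**Figure D1:**
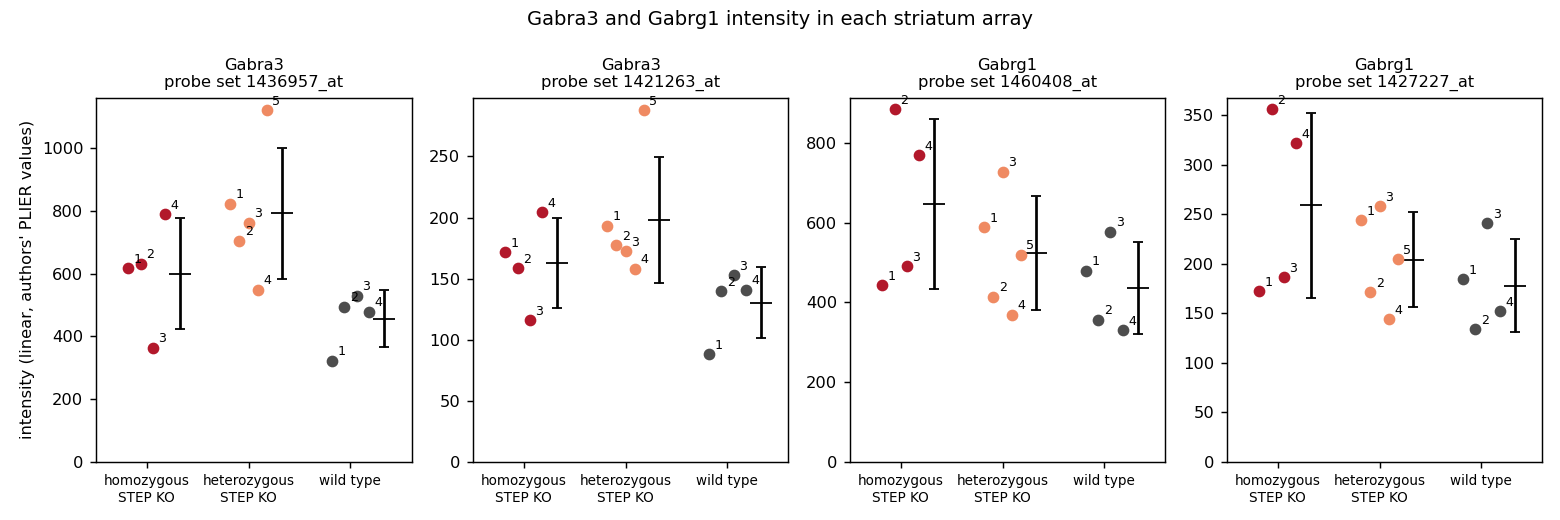
Intensity of the 4 probe sets on a linear scale starting at 0, with 1 point per array, numbered by replicate; the bar beside each group is its mean ± SD (n = 4 HOM, 5 HET, 4 WT). Both Gabra3 probe sets have all HET arrays above all WT arrays, and both Gabrg1 probe sets have HOM 2 and HOM 4 at the top.

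Neither probe set of Gabra3 passed the limma test over all 45037 probe sets in any comparison. HET minus WT was 0.76 ± 0.19 on the log2(value + 16) scale (SE, limma adjusted p = 0.287) for the brighter and 0.54 ± 0.17 (SE, limma adjusted p = 0.315) for the dimmer one. Across the array, 0.00222% of probe sets passed in this comparison. These 2 probe sets are in the selected table because the authors' heterozygous comparison had a raw p of at most 0.05 and a fold of at least 1.2, so the size of HET minus WT is a description and supports nothing further. In the authors' deposited table the folds are 1.72 and 1.52, with adjusted p-values of 0.361 and 0.372. The absence of overlap between HET and WT was shared by 6.55% of all probe sets with HET on top.

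The median intensity of the array was 187.4 in HET 1 and 198.4 in HET 3. In HET 2, HET 4 and HET 5 it was 166.8, 160.2 and 162.4, and in WT it ran between 153.8 and 168.3. At an unadjusted limma p under 0.05, 10.8% of probe sets were higher in HET than in WT. With each array centred on its median, HET minus WT was 0.65 for the brighter probe set of Gabra3 and 0.43 for the dimmer one. Without HET 4, the lowest HET array, the brighter probe set passed with 0.88 (limma adjusted p = 0.0443), and no other array decided a call for the 4 probe sets.

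In homozygous striatum Gabra3 stood between the other groups. HOM minus WT was 0.36 (95% interval -0.066 to 0.78, limma adjusted p = 0.908) for the brighter probe set, and HOM exceeded WT in 13 of 16 pairs of arrays. For the dimmer one it was 0.29 (interval -0.081 to 0.66, limma adjusted p = 0.908). HOM minus HET was -0.40 (interval -0.80 to -0.0041) and -0.25 (interval -0.60 to 0.098), each with a limma adjusted p of 1. An exact permutation test of group means (two-sided, log2 scale) gave p = 0.286 and 0.257 for HOM minus WT and p = 0.206 and 0.325 for HOM minus HET. With array weights, HOM minus WT of Gabra3 turned to -0.20 and -0.067 and HOM minus HET passed at -0.87 and -0.56 (limma adjusted p = 0.00232 and 0.0112), with HOM 3, the lowest HOM array, weighted at 12. The permutation test was run for each of 12 combinations of probe set and comparison. Without adjustment the limma p of HOM minus HET was 0.0479 for the brighter probe set and 0.149 for the dimmer one. Leaving out 1 array moved HOM minus WT between 0.20 (without WT 1) and 0.57 (without HOM 3) for the brighter probe set, and between 0.13 and 0.43 for the dimmer one without the same arrays. HOM minus HET ran between -0.55 (without HOM 4) and -0.19 (without HOM 3) for the brighter probe set, and between -0.36 and -0.12 for the dimmer one. In the order HET, HOM, WT, neither neighbouring pair passed the adjusted test on unweighted arrays.

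Gabrg1 was highest in homozygous striatum. With its brighter probe set, the HOM arrays had 443, 884, 490 and 769. The HET arrays had 589, 414, 727, 369 and 519, and the WT arrays had 480, 356, 577 and 329. All 3 groups overlapped, and the high mean of HOM rested on HOM 2 and HOM 4. Means were 647 ± 214 (SD, n = 4) in HOM, 524 ± 142.95 (SD, n = 5) in HET and 436 ± 115 (SD, n = 4) in WT.

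The dimmer probe set of Gabrg1 repeated this order. Its HOM arrays had 172, 356, 186 and 322, its HET arrays had 244, 171, 258, 144 and 204, and its WT arrays had 185, 134, 241 and 152. HOM 1 and HOM 3 lay inside the WT range for both probe sets. The 2 probe sets correlated with r = 0.978 over the 13 arrays and r = 0.973 for deviations from genotype means, so that the differences between mice of a genotype were seen by both.

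Gabrg1 did not pass the limma test over all probe sets either. HOM minus WT was 0.53 ± 0.21 (SE, limma adjusted p = 0.908) for the brighter probe set and 0.47 ± 0.21 (SE, limma adjusted p = 0.908) for the dimmer one, in a comparison where 0.00888% of probe sets passed. Both are in the selected table through the authors' homozygous comparison, so these differences too are a description. In the authors' deposited table the folds are 1.46 and 1.42, with raw p-values of 0.0301 and 0.0436 and an adjusted p of 0.89 for each. The exact permutation test, which pools no spread across probe sets, gave p = 0.143 and 0.2. It was run on the comparison of the selection, so these p-values are a description as well. With array weights the differences were 0.30 and 0.17. Leaving out 1 array moved them between 0.36 (without HOM 2) and 0.69 (without HOM 1) for the brighter probe set, and between 0.30 and 0.63 for the dimmer one without the same arrays.

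HET minus WT, which was not the comparison that listed Gabrg1, was 0.25 (interval -0.17 to 0.67, limma adjusted p = 0.58) for the brighter probe set and 0.19 (interval -0.22 to 0.59, limma adjusted p = 0.676) for the dimmer one. After median centring these were 0.14 and 0.072, after quantile normalization 0.078 and 0.069, and with array weights 0.11 and 0.058. Leaving out 1 array gave 0.13 (without HET 3) to 0.39 (without WT 3) for the brighter probe set and 0.073 (without WT 2) to 0.33 (without WT 3) for the dimmer one. HOM minus HET was 0.28 for each probe set, with intervals of -0.14 to 0.70 and -0.12 to 0.69 and a limma adjusted p of 1, and 0.00666% of all probe sets passed in this comparison. Without HOM 2 these were 0.11 and 0.12, and without HOM 1 they were 0.44 and 0.45. With array weights they were 0.19 and 0.12. In the order HOM, HET, WT, neither neighbouring pair passed the test.

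**Figure D2:**
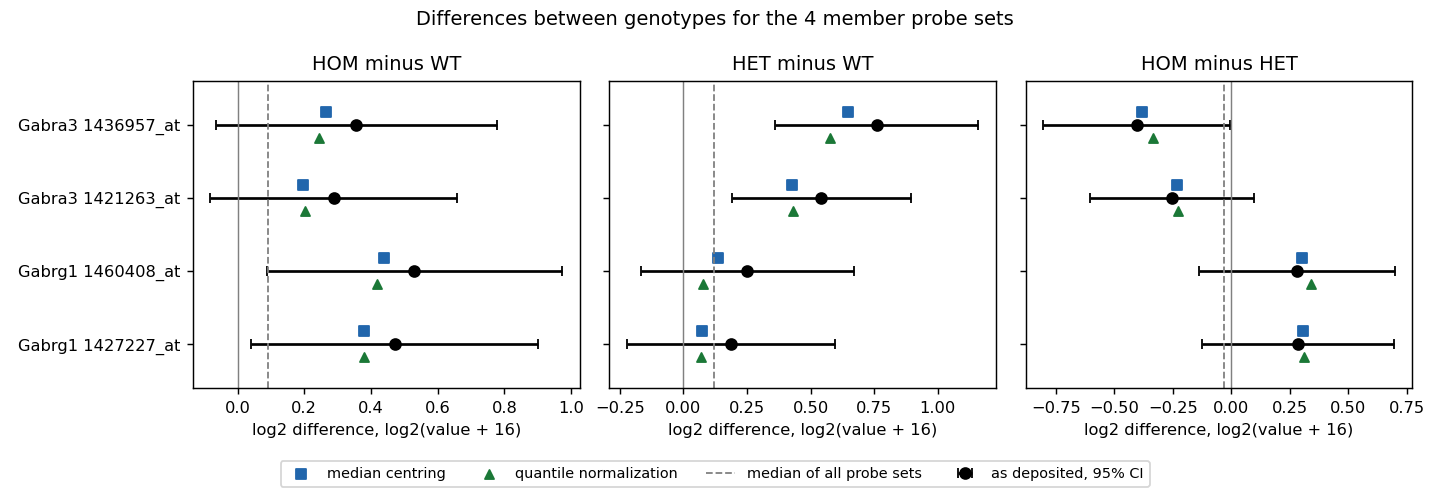
Differences of mean log2(value + 16) between genotypes for the 4 probe sets; black points with bars are the limma estimates with 95% intervals, squares and triangles the same after median centring and quantile normalization, and the dashed line is the median of all 45037 probe sets. The order of the 2 genes turns between panels: Gabra3 has the larger HET minus WT (0.76 and 0.54) and Gabrg1 the larger HOM minus WT (0.53 and 0.47). Each gene was selected by the authors through the comparison in which it is the larger, so the selection favoured this turn.

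The log2 ratio of Gabra3 to Gabrg1 within an array, taken from the log2(value + 16) values, averaged -0.34 ± 0.43 (SD, n = 4) in HOM, 0.27 ± 0.38 (SD, n = 5) in HET and -0.16 ± 0.48 (SD, n = 4) in WT. Gabra3 was selected for a high HET and Gabrg1 for a high HOM, so a lower ratio in HOM than in HET was built in by the selection, and these means are a description with no test. HOM minus HET was -0.61, and leaving out 1 array gave -0.80 (without HOM 1) to -0.46 (without HOM 2). HET minus WT was 0.43, with 0.24 (without WT 1) to 0.57 (without WT 2). HOM minus WT was -0.18, with -0.37 (without WT 1) to -0.030 (without HOM 2). Over the 13 arrays the mean log2 values of Gabra3 and Gabrg1 had r = 0.351 (permutation p = 0.241) and rho = 0.5 (permutation p = 0.0843), and r = 0.329 without HOM 2 and HOM 4. Within genotypes r was 0.339.

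Of 19 GABA-A receptor subunit genes, 4 were named in the files, and the other 2 were Gabra5, an alpha subunit of extrasynaptic receptors known from the hippocampus, and Gabrb2, a widespread beta subunit. Gabra5 had 529, 743, 524 and 534 in HOM, then 1009, 749, 670, 494 and 830 in HET, and 537, 550, 545 and 529 in WT. The 4 WT arrays were almost level, and 4 of 5 HET arrays lay above them. HET minus WT was 0.42 ± 0.15 (SE, limma adjusted p = 0.384). Gabrb2 averaged 1875 ± 434 (SD, n = 4) in HOM, 2029 ± 321 (SD, n = 5) in HET and 1554 ± 149 (SD, n = 4) in WT, and its HET minus WT was 0.37 ± 0.14 (SE, limma adjusted p = 0.396). Both were listed through the authors' heterozygous comparison, as Gabra3 was. None of the 6 subunit probe sets was called in any comparison, and their median difference was 0.32 in HOM minus WT, 0.40 in HET minus WT and -0.19 in HOM minus HET, beside 0.092, 0.12 and -0.031 over all probe sets. At an unadjusted limma p under 0.05, 2 of 6 were higher in HOM than in WT, against 2.82% of the array, and 4 of 6 were higher in HET than in WT, against 10.8%. In HOM minus HET 2 of 6 were lower, against 2.04%. All 6 come from a table selected for such differences, so these shares are a description.

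Other genes of GABA and glycine signalling were also not called in any comparison. Of 15 genes that anchor or traffic GABA-A receptors 3 were named. Hap1, a huntingtin-associated adaptor that aids receptor recycling, had HOM minus WT of 0.52 (limma adjusted p = 0.908), and Nlgn2, the adhesion molecule of inhibitory synapses, had 0.19 (limma adjusted p = 0.908). In the same comparison, the chloride channel Clcn2 and the exchanger Clcn3 had 0.15 and 0.11. Glra2, a glycine receptor subunit, had 0.27. In HET minus WT, 4 of the 5 anchoring probe sets were higher at an unadjusted p under 0.05, against 10.8% of the array. They are named here because the authors' selection on these comparisons took them, so the count is a description. No gene of the GABA-B list (5 genes) or of the list of GABA synthesis, transport and breakdown (8 genes) was named in the files used here.

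The genes whose values over the 13 arrays were most like each subunit formed separate sets. Among 2617 probe sets with a single symbol and a level above the array's median, the 5 closest to each probe set were taken, as a description. All share the same 13 arrays and their brightness, and all come from a table selected on these mice. For Gabra3, 6 genes are described, with r between 0.969 and 0.99: Plxna1, a semaphorin receptor, Raph1, a regulator of actin, Camk1, a calcium-dependent kinase, Ensa, an inhibitor of a protein phosphatase, Daam1, a formin, and Faah, which breaks down the endocannabinoid anandamide. Their r was between 0.959 and 0.98 after median centring.

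For Gabrg1 this gave 7 genes, with r between 0.918 and 0.967: B630019K06Rik, Baiap3, a protein of dense-core vesicle release, Slc27a2, a fatty acid transporter, Zcchc12, Ttc39c, Lhfpl3 and Rimklb, which makes N-acetylaspartylglutamate. The 2 sets shared 0 genes. The genes like Gabra3 had HET minus WT between 0.40 and 0.68, and those like Gabrg1 had HOM minus WT between 0.34 and 0.61. None of these 13 genes was called in any comparison, the lowest limma adjusted p being 0.313.

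**Figure D3:**
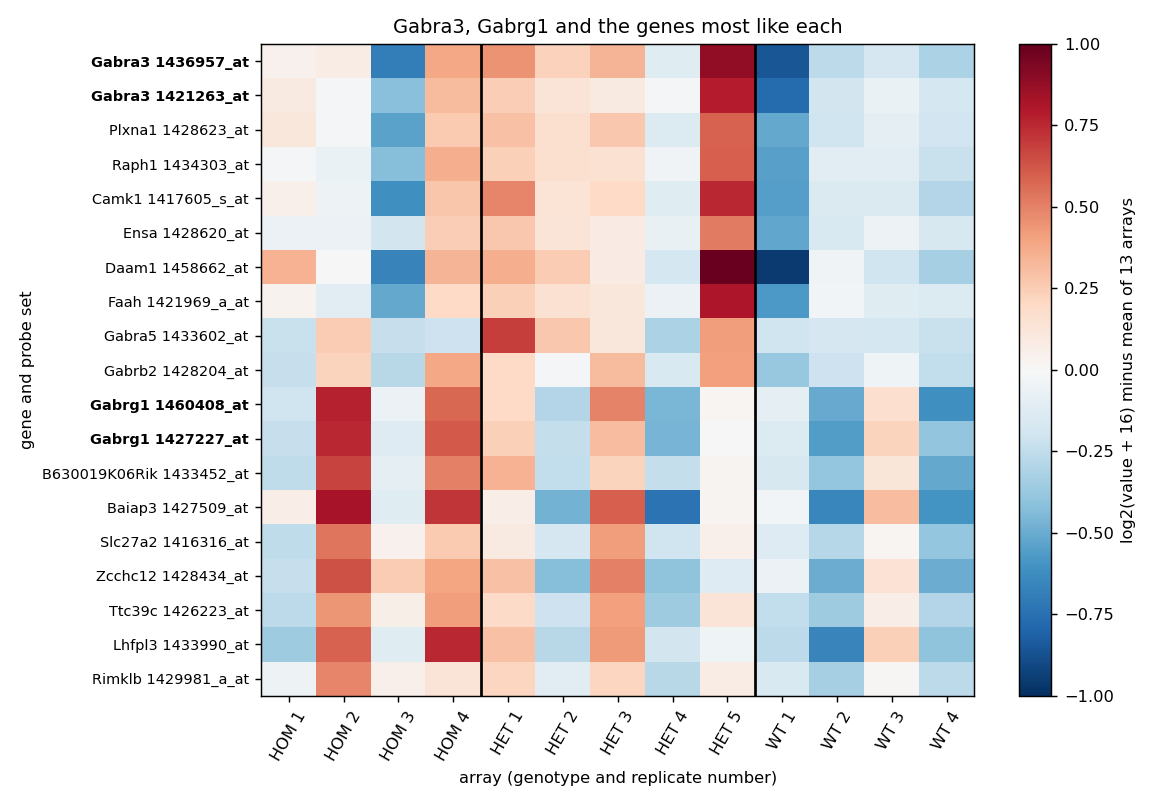
Log2(value + 16) minus the mean of 13 arrays, colour limited to 1 either way, for Gabra3 and Gabrg1 (bold), the genes most like each, Gabra5 and Gabrb2; columns are arrays by genotype. Gabra3 and the genes like it are highest in HET 5 and lowest in WT 1 or HOM 3, and Gabrg1 and the genes like it are highest in HOM 2, except Lhfpl3, which is highest in HOM 4.

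Gabra3 ran with the summed markers of cortical excitatory neurons. Of 13 such markers 6 were named in the files (Emx1, Neurod2, Rprm, Slc17a7, Tbr1 and Tshz2), and none was at 0. Their summed intensity ranged between 1510 and 3867 in HOM, between 3757 and 7849 in HET and between 1192 and 3885 in WT. HET 5 had the highest sum and WT 1 the lowest, as for Gabra3. At an unadjusted limma p under 0.05, 7 of their 8 probe sets were higher in HET than in WT, against 10.8% of the array. All are from the table selected for such differences, as Gabra3 is, and none was called. Over the 13 arrays Gabra3 correlated with the log2 sum at r = 0.867 (permutation p = 0.00013, adjusted p = 0.00104 over 16 relations) and rho = 0.769 (permutation p = 0.00312). Without WT 1 and HOM 3 r was 0.708, and after median centring it was 0.876. Because the selection favoured genes that were high in HET, part of this correlation was built in. Deviations from genotype means leave the group differences out, but not array brightness. For these deviations r was 0.819 (exact permutation within genotypes, p = 0.00213, adjusted p = 0.00851 over 16 relations). The markers did not follow Gabra3 equally. Each taken alone over the 13 arrays, Rprm had r = 0.895, Slc17a7 0.851, Tbr1 0.731, Neurod2 0.702, Emx1 0.619 and Tshz2 0.508. Neurod2, Rprm and Slc17a7 made up 29.6%, 27.3% and 21.3% of the sum in the median array. Unlike Gabra3, Tshz2 had a higher mean in HOM than in HET with both probe sets. Slc17a7, the vesicular glutamate transporter of cortical neurons, had HET minus WT of 1.43 ± 0.38 (SE, limma adjusted p = 0.287); it was chosen after its values were seen. The part of these markers in the difference of Gabra3 was not tested. In bulk tissue, fewer cells of a type and less RNA per cell cannot be told apart.

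Gabrg1 ran with the summed markers of a list for regions near the striatum. Of 14 markers listed for pallidum, septum, basal forebrain and amygdala 6 were named (Baiap3, Cartpt, Dlk1, Npas1, Trpc4 and Zcchc12), and none was at 0. Whether the striatum itself expresses these 6 genes was not tested. Their summed intensity ranged between 2798 and 5451 in HOM, between 2170 and 4518 in HET and between 2098 and 3431 in WT. At an unadjusted limma p under 0.05, 6 of their 7 probe sets were higher in HOM than in WT, against 2.82% of the array. All are from the table selected for such differences, as Gabrg1 is, and none was called. Gabrg1 correlated with the log2 sum at r = 0.963 (permutation p = 1e-05, the smallest that the resamples can give, adjusted p = 0.00016 over 16 relations) and rho = 0.967 (permutation p = 1e-05). Without HOM 2 and WT 4 r was 0.939, and after median centring it was 0.943. Here the selection favoured genes that were high in HOM, so part of this correlation was built in too. Both marker lists were also chosen with earlier results of these data known. The permutation over 13 arrays takes no account of either. For deviations from genotype means r was 0.953 (exact permutation within genotypes, p = 2.89e-05, adjusted p = 0.000463 over 16 relations). The permutations within genotypes, here and for Gabra3, take no account of that choice of lists. Array brightness also stays in the deviations, so these p-values are a description. Zcchc12 made up 70.5% of the sum in the median array, and it and Baiap3 are also among the genes most like Gabrg1. Without Zcchc12 r was 0.942. Without both, the other 4 markers gave r = 0.903, and r = 0.878 within genotypes (exact permutation within genotypes, p = 0.000694). These 4 did not follow Gabrg1 equally. Each taken alone, Cartpt had r = 0.879 and Dlk1 0.812, while Npas1 had 0.408 and Trpc4 0.382. Npas1 and Trpc4 made up only 0.891% and 2.73% of the sum of all 6 in the median array. Dlk1, a Notch ligand, had HOM minus WT of 1.80 ± 0.39 (SE, limma adjusted p = 0.361) with one probe set and 0.38 ± 0.16 (SE, limma adjusted p = 0.908) with the other. With the lists exchanged, r was 0.261 for Gabra3 with these regional markers (permutation p = 0.392) and -0.073 for Gabrg1 with the cortical ones (permutation p = 0.813). Within genotypes these were 0.228 and -0.13. The selection, through a different comparison for each gene, favoured low values over the 13 arrays here, so the exchange is a description. The part of the regional markers in the difference of Gabrg1 was not tested.

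**Figure D4:**
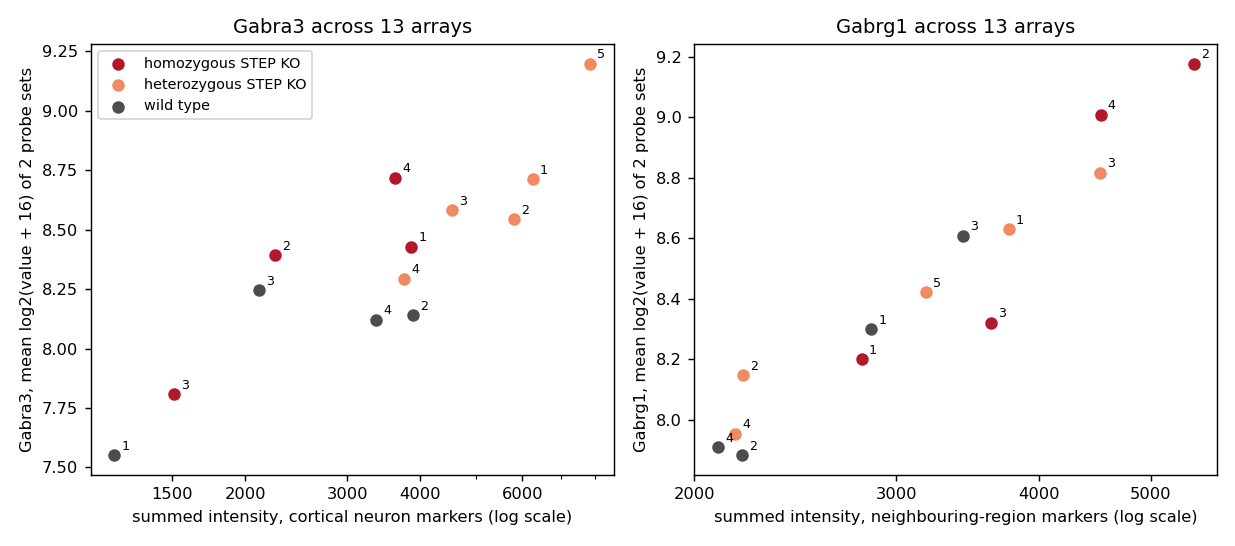
Left, mean log2(value + 16) of the 2 probe sets of Gabra3 against the summed intensity of 6 cortical neuron markers. Right, the same for Gabrg1 and 6 markers listed for neighbouring regions. Both sums are on a log axis, and each point is an array, coloured by genotype and numbered by replicate. Both rise together across arrays, with r = 0.867 on the left and r = 0.963 on the right. All these genes come from the authors' selection on these mice, so part of both correlations was built in.

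Markers of other cell types were less often named, and members of a list did not all go one way in HOM minus WT. None of the markers was called in this comparison. Among GABAergic interneuron genes, Vip had 0.52, Nos1 0.22, Sst 0.12 and Npy -0.079. Among cortical genes, the probe sets of Tshz2 had 0.88 and 0.50, Rprm had 0.38 and Slc17a7 0.059. Tbr1 had -0.34, Emx1 -0.19 and Neurod2 -0.25 and -0.033, and the median of the list was 0.013. Of the astrocyte genes, Gfap had -0.47 and Aldoc 0.20. Itgam, of microglia, had 0.41, and Tagln, of vessels and meninges, had 1.08 (limma adjusted p = 0.0941). No marker of medium spiny neurons, cholinergic interneurons, oligodendrocytes, choroid plexus or ependyma was named in the files used here, so that the labelled tissue was checked only through Ptpn5 itself, whose brighter probe set had 3527 ± 276 (SD, n = 4) in WT and exceeded 95.2% of all probe sets on average.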

How the data were processed

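Intensity values on a linear scale were made by the authors with PLIER, per the submitters' processing notes. They were used from the deposited whole-array table of 45101 probe sets, of which 64 array controls were left out. The deposited table of selected probe sets supplied gene symbols, the authors' signed fold (a score on a linear scale) and the authors' raw and adjusted p-values. Columns of the whole-array table are named by sample, and groups follow the sample titles. Members and gene lists were chosen with earlier results of these data known.

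Values were turned into log2(value + 16), which understates differences of dim probe sets. Limma 3.58.1 (R 4.3.3; lmFit, eBayes with an intensity trend) took the 13 arrays in 1 two-sided fit with a mean per genotype, with Benjamini-Hochberg adjustment over 45037 probe sets and a threshold of 0.05. The fit was tested on simulated data. Single values were compared with exact two-sided permutation tests. Correlations used 100000 resamples.

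Only probe sets of the selected table carry names here: 1 symbol for 3581 of them, several for 49 and none for 793. Entrez IDs linked 3543 to RefSeq. Named genes are every probe set of the members, the other GABA-A subunits, the 2 genes of each other GABA or glycine list and the 1 of each marker list with the smallest p in HOM minus WT, the 5 genes most like each probe set, and Ptpn5. Other members of the lists and the called genes are named beside these, outside this rule. Some genes that the rule takes are not reported here. Slc17a7 was chosen after its values were seen. Arrays have no read depth, so their number limits the precision.

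The fit was repeated with offsets of 1 and 32, on brighter probe sets alone, after median centring or quantile normalization, without the intensity trend, with a replicate block, with array weights, with the 2 groups of a comparison alone, over the selected probe sets alone, with exchanged labels, at an adjusted p under 0.1, and without each array in turn. The ratio of Gabra3 to Gabrg1, the correlations with marker sums, their exact permutation within genotypes and the sums without single markers were added after seeing the data.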

Additional observations from a re-analysis of the deposited data

Results flagged for a closer look

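One of 12 combinations of member probe set and genotype held an array that stood apart from its group. For the dimmer probe set of Gabra3, WT 1 had an intensity of 87.85, while the other 3 WT arrays lay between 139.85 and 152.68. Its gap to the nearest array was 0.837 of the range of the group on the log2(value + 16) scale, above Dixon's 95% critical value of 0.829 for 4 samples, and chance alone marks about 1 in 20 groups. WT 1 was also the lowest array for the brighter probe set, with 323, and had the lowest summed intensity of cortical neuron markers, 1192. Without WT 1, HET minus WT was 0.39 for the dimmer probe set and 0.61 for the brighter one.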

How the results depend on the processing

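The 4 probe sets kept the direction of every difference with both offsets, both normalizations, brighter probe sets only (which leaves out the dimmer one of Gabra3), no intensity trend, only the groups compared, the replicate block and each array left out. Array weights gave HOM 3 a weight of 12 and turned HOM minus WT of Gabra3 to -0.20 and -0.067; HOM minus HET of Gabra3 then passed, at -0.87 and -0.56 (limma adjusted p = 0.00232 and 0.0112). HET minus WT of the brighter Gabra3 probe set, 0.76, had a limma adjusted p of 0.0497 over the selected probe sets alone, which were chosen for such differences. Leaving out 1 array gave it values of 0.61 to 0.88, and it passed at 0.88, without HET 4. Exchanging wild type and homozygous labels turned HOM minus WT to -0.36 and -0.29 for Gabra3 and -0.53 and -0.47 for Gabrg1, and for Gabrg1 HET minus WT to -0.28 for each probe set and HOM minus HET to -0.25 and -0.19. Array weights also took Gabrg1 to 0.30 and 0.17 in HOM minus WT. The log2 ratio of Gabra3 to Gabrg1 and the 3 correlations kept their direction under every setting run for them.

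The limma counts of called probe sets were 4 in HOM minus WT, 1 in HET minus WT and 3 in HOM minus HET. With brighter probe sets only the first was 2. With only the groups compared the first was 18 and the third 12. With array weights the counts were 8389, 4 and 5708, in the same order. Over the selected probe sets alone HET minus WT had 673, at an adjusted p under 0.1 it had 2, and with labels exchanged HET minus WT had 3 and HOM minus HET had 1. Leaving out 1 array gave 3 to 12, 1 to 213 and 0 to 7, in the same order. HOM minus WT had 12 without HOM 4 and 7 without HOM 1 or HET 5. HET minus WT had 213 without HET 4, 5 without HOM 3, 4 without WT 4 and 2 without HET 5 or HOM 4. HOM minus HET had 7 without HOM 1, 1 without HET 1 and 0 without HOM 4 (limma; 1870 at an unadjusted p under 0.05). The cause of these shifts was not tested. With the replicate block, in which HET 5 has no partner, the counts were 17, 6 and 12, and no call for the 4 probe sets changed. Same-numbered arrays shared only a number: deviations of the 12 such pairs correlated between -0.569 and 0.25, with a median of -0.079.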

Other observations

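Of the 16 correlations computed over the 13 arrays, 5 others had an unadjusted permutation p under 0.05, and these are given as values. All the genes come from the authors' selection on these mice, so the value within genotypes, with its exact permutation p adjusted over 16 relations, stands beside each. The values within genotypes were not centred on array medians, so the brightness that genes share in an array stays in them. No value both centred and within genotypes was computed. Gabrg1 correlated with the summed intensity of the named genes of receptor anchoring and trafficking, Hap1, Nlgn2 and Trak1, at r = 0.788 (permutation p = 0.0014, adjusted p = 0.00747), and within genotypes at r = 0.844 (exact permutation, adjusted p = 0.00324). It correlated with the summed chloride channel Clcn2 and exchanger Clcn3 at r = 0.686 (permutation p = 0.00914, adjusted p = 0.0292). For this sum r was 0.387 after median centring and 0.908 within genotypes (exact permutation, adjusted p = 0.00127). With the vessel and meninges markers Aldh1a2 and Tagln it had r = 0.613 (permutation p = 0.0252, adjusted p = 0.0576), and 0.449 within genotypes (exact permutation, adjusted p = 0.555). Gabra3 correlated with Clcn2 and Clcn3 at r = 0.628 (permutation p = 0.0208, adjusted p = 0.0555), and at 0.334 within genotypes (exact permutation, adjusted p = 0.622). With the interneuron genes Nos1, Npy, Sst and Vip it had r = 0.721 (permutation p = 0.00441, adjusted p = 0.0176), r = 0.488 without HET 5 and HET 1, and r = 0.499 within genotypes (exact permutation, adjusted p = 0.378).

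Activity-regulated genes, of which 20 of 23 were named, had correlations with both subunits that missed the threshold. The r was 0.269 for Gabra3 (permutation p = 0.377) and 0.363 for Gabrg1 (permutation p = 0.223), and within genotypes it was -0.176 and 0.101. Astrocyte markers, represented by Aldoc and Gfap, had r = 0.281 with Gabra3 (permutation p = 0.351) and r = 0.069 with Gabrg1 (permutation p = 0.826). The summed intensity of the 2 astrocyte genes ranged between 835 and 1543 in HOM, between 1237 and 1449 in HET and between 1083 and 1297 in WT.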
